A study of Mus musculus with 4 samples.

Results

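Naive-like CD8 T cells are cells with transcripts of the CD8 co-receptor and of the naive-cell transcription factors Lef1 or Tcf7, and with little or no trace of an effector programme. They were taken from a single-cell RNA-seq study of leukocytes in transplanted mouse left lungs. The members were selected on their own transcripts, so those transcripts are a description here and not a finding. A member had at least 2 UMIs (unique molecular identifiers, the counted molecules) over Cd3e, Cd3d and Cd3g, at least 1 Cd8b1 UMI and at least 1 UMI over Lef1 and Tcf7. It had no UMI of Cd4, Gzmk, Foxp3, Trdc or Cd79a, fewer than 3 Ccl5 UMIs, and under 1% of its UMIs from the neutrophil genes S100a8 and S100a9. The rule selected 978 of 24291 cell barcodes that had 200 or more genes and no more than 10% of UMIs from mitochondrial genes, and 978 of the 4475 barcodes with the Cd3 criterion, no Cd79a and low S100a8 and S100a9, called T cells below.

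Left lungs of B6 mice were transplanted into syngeneic B6 recipients after cold and then warm storage, and were examined 2 h after reperfusion. Recipients had received either resolvin D1 (RvD1, a lipid mediator derived from docosahexaenoic acid that is known for its part in the resolution of inflammation), 200 ng given intravenously in 1% ethanol before transplantation, or the vehicle. All grafts therefore shared storage, surgery and reperfusion, and no ungrafted lung was analysed here. CD45+ leukocytes of recipient origin and of donor origin made separate libraries, giving 4: RvD1 recipient, RvD1 donor, vehicle recipient and vehicle donor. Each library pooled 2 lungs, the labels give the genotype as not applicable, and no source used here says if a recipient and a donor library shared lungs. With 1 library for each treatment and origin, differences between treatments or origins have no replicate check and no p-value, and intervals beside them cover counting error only.

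A naive CD8 T cell has left the thymus but has not yet met its antigen. Such cells circulate between blood and lymph nodes, held in a quiescent state by transcription factors such as Lef1, Tcf7 and Klf2, and they enter nodes with the chemokine receptor Ccr7 and leave them with the receptor S1pr1. In the mouse they carry little of the hyaluronan receptor CD44, which memory and effector cells carry at a high level together with cytotoxic granule proteins.

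Total counts in the 4 libraries ranged between 42199775 and 61294707 UMIs, and between 4 and 15 barcodes were shared by any pair of libraries, at most 0.269% of the smaller library. The naive-like CD8 T cells together held 4375462 and 779846 UMIs in RvD1 recipient and donor, against 2565227 and 2015113 in vehicle recipient and donor. The RvD1 donor cells therefore gave the least precise values. Median UMIs per member were 8548 in RvD1 recipient and 10310 in RvD1 donor, against 9520 in vehicle recipient and 11217 in vehicle donor. Ribosomal protein genes took 39.1% and 37.5% of members' UMIs in RvD1 recipient and donor, against 36.6% and 27.6% in vehicle recipient and donor, so vehicle donor cells stood apart. Per the file headers, Cell Ranger 7.0.1 made the counts for RvD1 and version 6.1.1 those for vehicle, and the version cannot be told apart from the treatment.

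Naive-like CD8 T cells were a larger share of T cells among recipient cells than among donor cells. They were 493 of 1843 T cells in RvD1 recipient, 26.7% (95% exact binomial interval 24.7 to 28.8%), and 74 of 827 in RvD1 donor, 8.95% (7.09 to 11.1%). In the vehicle libraries they were 251 of 785 T cells among recipient cells, 32.0% (28.7 to 35.4%), and 160 of 1020 among donor cells, 15.7% (13.5 to 18.1%). The intervals of recipient and donor did not overlap under either treatment. The share was lower with RvD1 than with vehicle in both origins; the intervals were apart for donor cells and met at their ends for recipient cells. The size of these shares rests on the depth at which the rule is applied, because members must show Cd8b1 and Lef1 or Tcf7. With every cell thinned to 1500 UMIs the shares were 8.20% in RvD1 recipient and 1.69% in RvD1 donor, against 10.2% in vehicle recipient and 4.82% in vehicle donor, in the same order. Of all filtered barcodes the members were 6.47% and 1.45% in RvD1 recipient and donor, against 4.24% and 2.83% in vehicle recipient and donor, so on this denominator RvD1 recipient was above vehicle recipient.

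**Figure D1:**
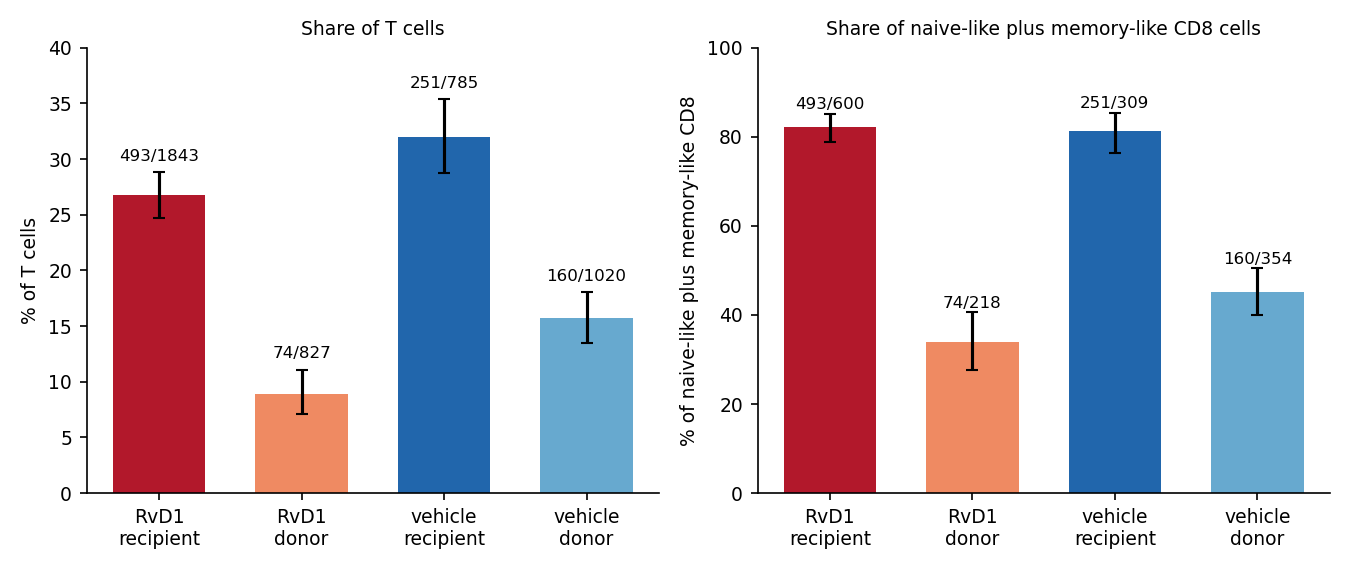
Share of T cells that were naive-like CD8 T cells and their share of naive-like plus memory-like CD8 T cells (percent, bars with 95% exact binomial intervals, cell counts above) in the 4 libraries. Both shares are higher in the 2 recipient libraries, with 82.2% and 81.2% of CD8 T cells naive-like, than in the 2 donor libraries, with 33.9% and 45.2%.

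The origin divided the CD8 T cells as well. Memory-like CD8 T cells, chosen by Cd8b1 together with Gzmk or at least 3 Ccl5 UMIs, numbered 107 in RvD1 recipient and 144 in RvD1 donor, against 58 in vehicle recipient and 194 in vehicle donor. Of the naive-like and memory-like CD8 T cells in sum, the naive-like made up 82.2% (78.9 to 85.1%) in RvD1 recipient and 33.9% (27.7 to 40.6%) in RvD1 donor, and 81.2% in vehicle recipient and 45.2% (39.9 to 50.5%) in vehicle donor. Recipient CD8 T cells were thus mostly naive-like under both treatments. Set against CD4 T cells that passed the same gate with Cd4 in place of Cd8b1, the naive-like CD8 T cells were 54.7% and 48.4% in RvD1 recipient and donor, against 60.3% and 56.5% in vehicle recipient and donor.

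The cells just inside and just outside each threshold were few for most genes. A Cd3 sum of exactly 2 was found in 15 members, and a Lef1 and Tcf7 sum of exactly 1 in 28 members. Cd8b1 rested on a single UMI in 264 members, and 922 other T cells met every other criterion with no Cd8b1 UMI. Of the members, 859 had no Ccl5 UMI and 28 had exactly 2, while 306 cells failed only the Ccl5 criterion, 11 of them with exactly 3 UMIs.

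The label was checked against the markers Cd8a and Dapl1. The markers Cd8b1, Lef1 and Tcf7 belong to the rule, so their levels are a description and no check. Cd8a (chr6:71373427-71379173, plus strand, GRCm38, GENCODE M21), which the rule did not use, encodes the CD8 alpha chain. Its level, in CPM (UMIs summed over the cells of a class and scaled to a common total), was 69.5 in RvD1 recipient members and 57.7 in RvD1 donor, against 49.5 in vehicle recipient and 48.6 in vehicle donor. In the gate-matched CD4 T cells it was 0.317 CPM in RvD1 recipient and 0 in the other 3 libraries, so the 2 classes did not overlap. Between 36.5% and 40.8% of members had a Cd8a UMI, against at most 0.237% of barcodes rich in S100a8 and S100a9 and without Cd3 (neutrophil-like barcodes, median 4947 to 5482 UMIs), where a UMI would come from free RNA. Cd8b1, the CD8 beta chain gene at chr6:71322788-71337494 on the plus strand, stood at 325.5 and 302.6 CPM in RvD1 recipient and donor, against 283.8 and 243.2 CPM in vehicle recipient and donor.

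The transcription factors chosen by the rule were high in every library. Lef1 (chr3:131110471-131224356, plus strand) stood at 709.6 CPM in RvD1 recipient and 689.9 in RvD1 donor, against 822.9 in vehicle recipient and 910.1 in vehicle donor. Tcf7 (chr11:52252371-52283014, minus strand) stood at 251.6 and 286.0 CPM in RvD1 recipient and donor, against 236.2 and 293.3 CPM in vehicle recipient and donor. Dapl1 (chr2:59484653-59505020, plus strand), a marker the rule did not use, reached 164.8 CPM in RvD1 recipient and 103.9 in RvD1 donor, against 152.8 in vehicle recipient and 128.5 in vehicle donor. A Dapl1 UMI was found in 48.9% and 43.2% of members in RvD1 recipient and donor, against 53.4% and 38.8% in vehicle recipient and donor; in cells thinned to 1500 UMIs these shares were 17.8% and 13.5%, against 14.7% and 11.9%. In neutrophil-like barcodes the share was at most 0.102%.

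The genes of lymph node entry and exit Ccr7 and S1pr1 were read too, and the rule did not use them. Ccr7 stood at 401.1 CPM in RvD1 recipient and 355.2 in RvD1 donor, against 464.3 in vehicle recipient and 405.4 in vehicle donor. Memory-like CD8 T cells had between 120.1 and 239.3 CPM of Ccr7, below every member value. S1pr1 stood at 400.6 CPM in RvD1 recipient and 337.2 in RvD1 donor, against 323.6 in vehicle recipient and 359.3 in vehicle donor.

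**Figure D2:**
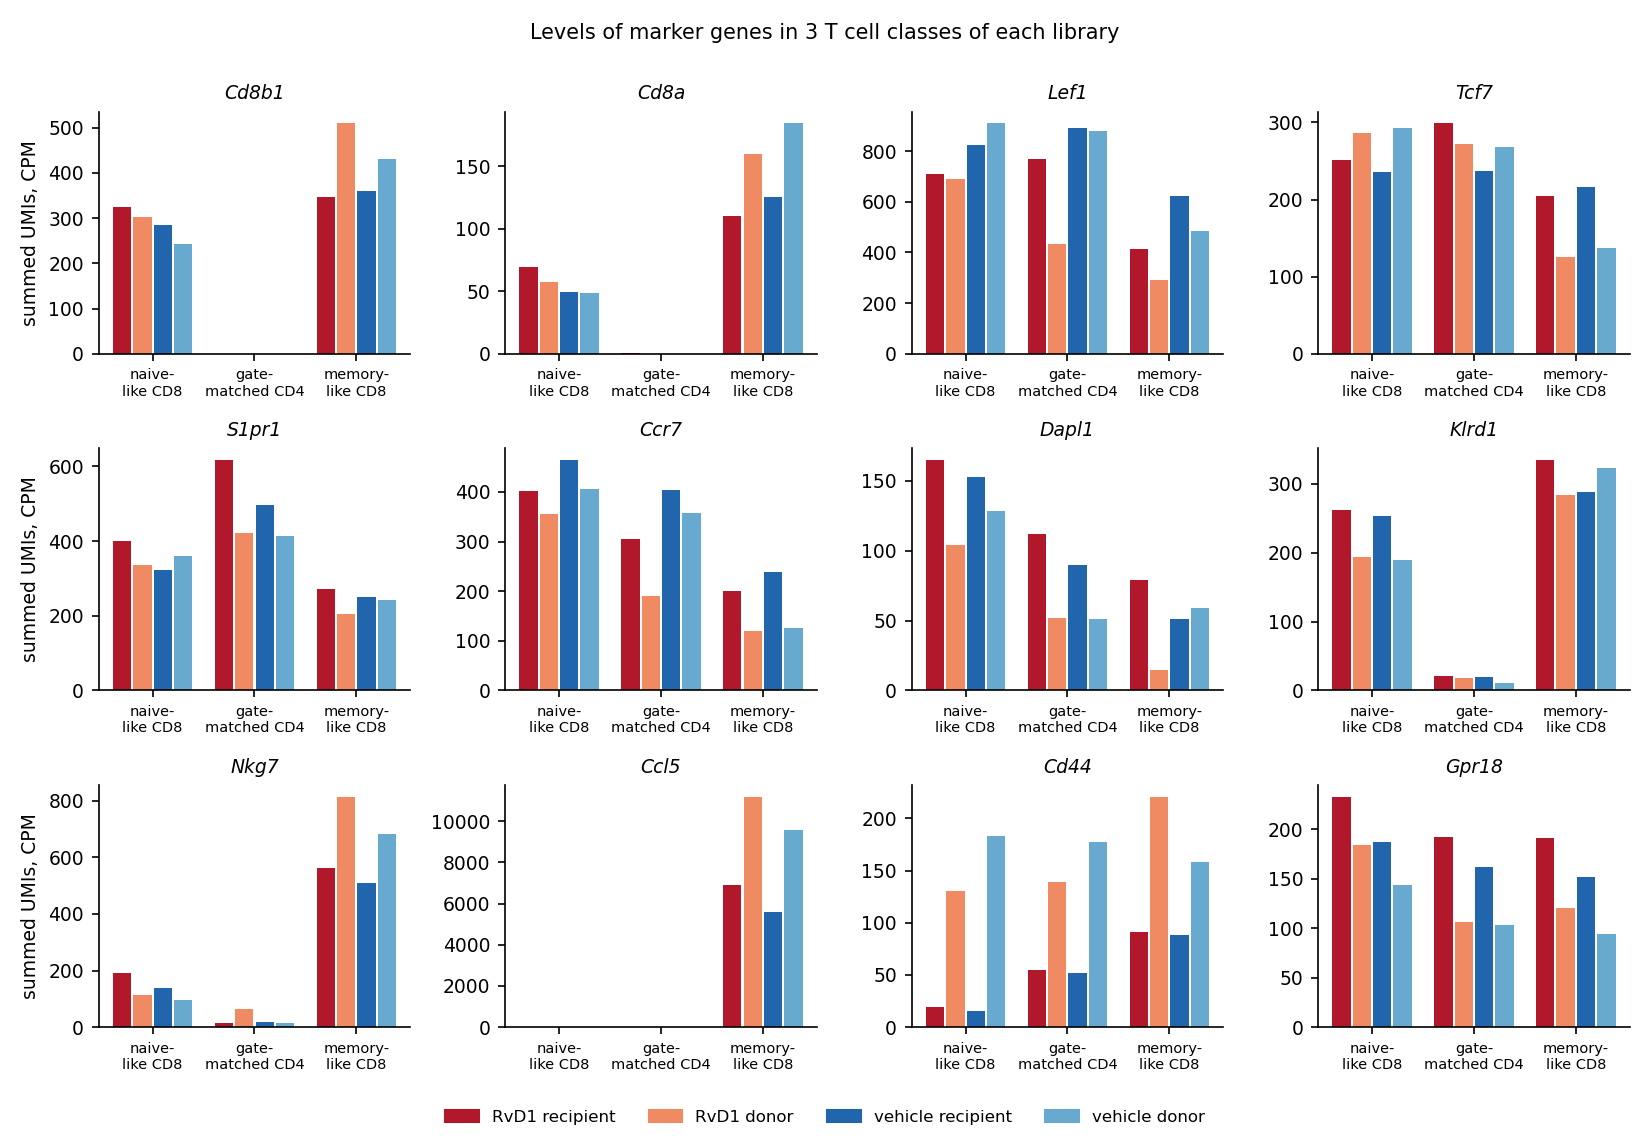
Levels (CPM, UMIs scaled to the total of the class) of 12 genes in naive-like CD8, memory-like CD8 and gate-matched CD4 T cells of the 4 libraries. Cd8a is at or near 0 in CD4 T cells, Klrd1 is present in both CD8 classes, and Cd44 in naive-like CD8 T cells is at 15.2 to 19.2 CPM in the recipient libraries and at 130.8 to 183.1 CPM in the donor libraries.

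Against memory-like CD8 T cells, the naive-like CD8 T cells differed by construction, because Gzmk and Ccl5 separate the classes. No test was made. Measured were 8562 genes with at least 100 UMIs summed over both classes and the 4 libraries, with no minimum in a single library. Of these, 119 (1.39%) were at least 1.5-fold higher in naive-like cells in every library and 437 (5.10%) were at least 1.5-fold lower. The higher ones with the largest median log2 ratios over the 4 libraries included Gria3 at 3.67, Itgae, the integrin chain CD103, at 3.10, Igfbp4, which binds insulin-like growth factors, at 2.84, and Igf1r, their receptor, at 2.80. The lower ones included the lectin-like receptor Klrc1 at -5.97, granzyme A (Gzma) at -5.78, Klre1 at -5.00, the chemokine Ccl4 at -4.86 and Slamf7 at -4.49. Klrc1 and its close relative Klrc2 may share reads. Of 36 memory and cytotoxic genes measured, 33 were lower in all 4 libraries, and their median was -2.71, against -0.11 over all genes. Naive genes differed less. Of 18 homing and quiescence genes, 3 were higher and 0 lower in all 4 libraries, with a median of 0.34. Of the 5 markers Cd8b1, Cd8a, Lef1, Tcf7 and Dapl1, 1 was higher and 1 lower in all 4, with a median of 0.70.

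Gate-matched CD4 T cells, which share the naive gate and the libraries, allowed a test. Their 776 cells divided into 409 and 79 in RvD1 recipient and donor, and 165 and 123 in vehicle recipient and donor. Summed UMIs per library and class were compared in edgeR's quasi-likelihood test with the library as a block, so the p-values measure the spread between 4 libraries. Of 8596 genes tested, 378 (4.40%) were higher and 453 (5.27%) were lower in the naive-like CD8 T cells at a Benjamini-Hochberg adjusted p of 0.05. The median log2 fold change of all genes was 0.006. Without the cells that carried myeloid transcripts (below), 424 were higher and 507 lower of 8339 genes. Of these, 355 and 394 were among the calls with all cells. Per cell, the summed memory and cytotoxic list had a higher 90th percentile in CD4 T cells than in members. It was 31.6 against 22.5 UMIs per 10000 in RvD1 recipient, 90.8 against 40.6 in RvD1 donor and 58.7 against 45.6 in vehicle donor. In vehicle recipient it was 24.8 against 19.8, or 16.8 against 19.6 without myeloid-bearing cells. The CD4 median was higher in RvD1 donor alone, at 27.3 against 12.9. The part of CD4 cells with memory transcripts in the lower calls was not tested.

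Klrd1, Nkg7, Gzma, Prf1 and Ctsw, known from natural killer and cytotoxic cells, were higher in the naive-like CD8 T cells, while the lists they belong to went both ways. Klrd1 (chr6:129591782-129598775, plus strand) encodes CD94, the partner of the NKG2 receptors. It stood at 262, 194, 253 and 189 CPM in members of RvD1 recipient, RvD1 donor, vehicle recipient and vehicle donor, against 21.3, 17.8, 19.3 and 10.1 CPM in CD4 T cells of the same libraries. Every member value lay above every CD4 value, and the log2 fold change was 3.82 (SE 0.12, edgeR adjusted p 1.96e-08). A Klrd1 UMI was present in 71.2 to 80.9% of members, against 0.748 to 2.57% of neutrophil-like barcodes. Nkg7, a protein of cytotoxic granules, averaged 136 CPM in members and 27.8 CPM in CD4 T cells over the 4 libraries, a log2 fold change of 2.82 (SE 0.32, edgeR adjusted p 0.000226). The transcripts of granule effectors were scarcer. Gzma averaged 16.9 CPM in members and 3.44 CPM in CD4 T cells (log2 2.38), perforin (Prf1) 18.9 and 6.46 CPM (log2 1.63), and cathepsin W (Ctsw) 43.2 and 11.5 CPM (log2 2.08), all past the edgeR threshold. In the memory and cytotoxic list 8 of 28 genes tested were higher and 10 lower, against 4.40% and 5.27% of all genes tested. The list median was -0.39, or -0.11 without myeloid-bearing cells and 0.10 without the vehicle donor library. Of the natural killer cell markers 3 were tested, 1 was higher and none lower, with a median of -0.71.

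Several other genes marked the naive-like CD8 T cells. Bend4 (chr5:67392147-67428310, minus strand), which encodes a BEN domain protein, stood at 79.8, 117, 99.4 and 95.8 CPM in members of RvD1 recipient, RvD1 donor, vehicle recipient and vehicle donor, against 2.54, 0, 1.93 and 5.07 CPM in CD4 T cells. Its log2 fold change was 5.17 (SE 0.27, edgeR adjusted p 4.05e-07). Antisense gene models overlap Bend4, and whether the counting used strand is not stated. Fam241a (chr3:127869058-127896324, minus strand) stood at 548, 522, 513 and 472 CPM in members against 96.4, 48.9, 97.8 and 63.8 CPM in CD4 T cells, in the same order of libraries, a log2 fold change of 2.80 (SE 0.14, edgeR adjusted p 3.43e-07). None of its member values approached a CD4 value. The amino acid transporter gene Slc6a19 (log2 3.86), the glutamate receptor subunit gene Gria3 (3.81), the long non-coding RNA gene Ifngas1 (3.82) and the lipocalin gene Lcn4 (3.19) were higher as well. Trnp1 had at most 1.48 CPM in CD4 T cells and 8.44 to 14.2 CPM in members, and Cd8a was nearly absent from CD4 T cells, so the fitted fold changes of both are no measure of size.

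Among genes of position and identity, Ccr9, the receptor for CCL25 that guides T cells to the gut, was higher in members, averaging 18.6 CPM against 2.54 CPM in CD4 T cells (log2 2.80). So was Itgae (log2 2.66), and Runx3, a transcription factor of the CD8 lineage, at 211 against 97.1 CPM (log2 1.24, SE 0.10, edgeR adjusted p 1.47e-05). Ly6c2 was higher (log2 2.61) while its close neighbour in sequence Ly6c1 was lower (log2 -4.46), and reads of these near-identical genes may be divided between them. The homing gene Ccr7 (log2 0.48, edgeR adjusted p 0.0228) and the marker Dapl1 (0.95, edgeR adjusted p 0.000577) were higher by less. S1pr1, the receptor for lymph node exit, was lower at 355 CPM in members against 487 CPM in CD4 T cells (log2 -0.35, edgeR adjusted p 0.0303). Klf2 (log2 0.26), Il7r (0.02) and Satb1 (0.09) did not pass the test, with edgeR adjusted p-values of 0.199, 0.922 and 0.703. The naive homing and quiescence list had 2 of 18 genes higher and 6 lower, against 4.40% and 5.27% of all genes tested, with a median of 0.06. The lower count rested on single libraries: it was 1 without RvD1 recipient, 2 without vehicle recipient and 0 without the library block.

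The genes of T cell help and costimulation were mostly lower in the naive-like CD8 T cells. Tnfrsf4 encodes OX40, a costimulatory receptor. It stood at 6.17, 16.7, 1.56 and 2.48 CPM in members of RvD1 recipient, RvD1 donor, vehicle recipient and vehicle donor, against 55.8, 317, 47.6 and 61.6 CPM in CD4 T cells, a log2 fold change of -3.84 (SE 0.23, edgeR adjusted p 1.65e-06). RvD1 donor was the highest library in both classes. Of 15 costimulation genes tested, 9 were lower and 1 was higher, against 5.27% and 4.40% of all genes tested. Their median was -1.16, and 4 were lower without the library block. Among the lower were Icos (112 CPM in members against 313 CPM in CD4 T cells), Cd28 (69.6 against 172 CPM), Ctla4 (65.6 against 153 CPM), Pdcd1 (16.1 against 53.1 CPM) and Btla (27.2 against 72.8 CPM). The CD40 ligand gene Cd40lg averaged 6.54 CPM in members and 37.0 CPM in CD4 T cells (log2 -2.84). Of 25 genes of T cell receptor signalling, 7 were lower and 2 higher, against 5.27% and 4.40% of all genes tested. Cd5 was among the lower at 15.5 against 56.3 CPM, and so was Trat1, a receptor-associated adaptor, at 12.1 against 85.1 CPM.

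Transcription factor genes were among the lower ones as well. Hif1a, the oxygen-regulated factor, stood at 117, 123, 124 and 117 CPM in members of RvD1 recipient, RvD1 donor, vehicle recipient and vehicle donor, against 341, 570, 418 and 423 CPM in CD4 T cells, a log2 fold change of -1.71 (SE 0.10, edgeR adjusted p 1.31e-06). The 4 member values lay close to each other, and every CD4 value was above them. Gata3, a factor of CD4 helper cells, averaged 19.3 CPM in members and 67.5 CPM in CD4 T cells (log2 -1.47), and Tox averaged 137 and 405 CPM (log2 -1.43). Ly6a, Itgb1, Cxcr3, Cd200 and Tnfsf11 were lower by log2 fold changes between -1.80 and -2.99. Ccl22, Pf4, Ccl2 and Adgrl3, also among the genes with the largest fitted decreases, had too few UMIs to be tested once cells carrying myeloid transcripts were left out.

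Ribosomal protein genes were higher in the naive-like CD8 T cells in 62 of 88 genes tested, none were lower, and the median was 0.32. Of all genes tested, 4.40% were higher and 5.27% lower. The ribosomal share of all UMIs was 39.1, 37.5, 36.6 and 27.6% in members of RvD1 recipient, RvD1 donor, vehicle recipient and vehicle donor, against 34.9, 29.5, 31.6 and 24.8% in CD4 T cells. The count of higher ribosomal genes depended on the recipient libraries: it was 11 of 87 without RvD1 recipient and 11 without vehicle recipient, and 0 without the library block. Genes of oxidative phosphorylation (0 of 45 higher, 1 lower), survival (0 of 15 either way), glycolysis (0 of 19 higher, 3 lower), heat shock (1 of 21 higher, 2 lower) and interferon response (1 of 31 higher, 4 lower) were mostly within the threshold.

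**Figure D3:**
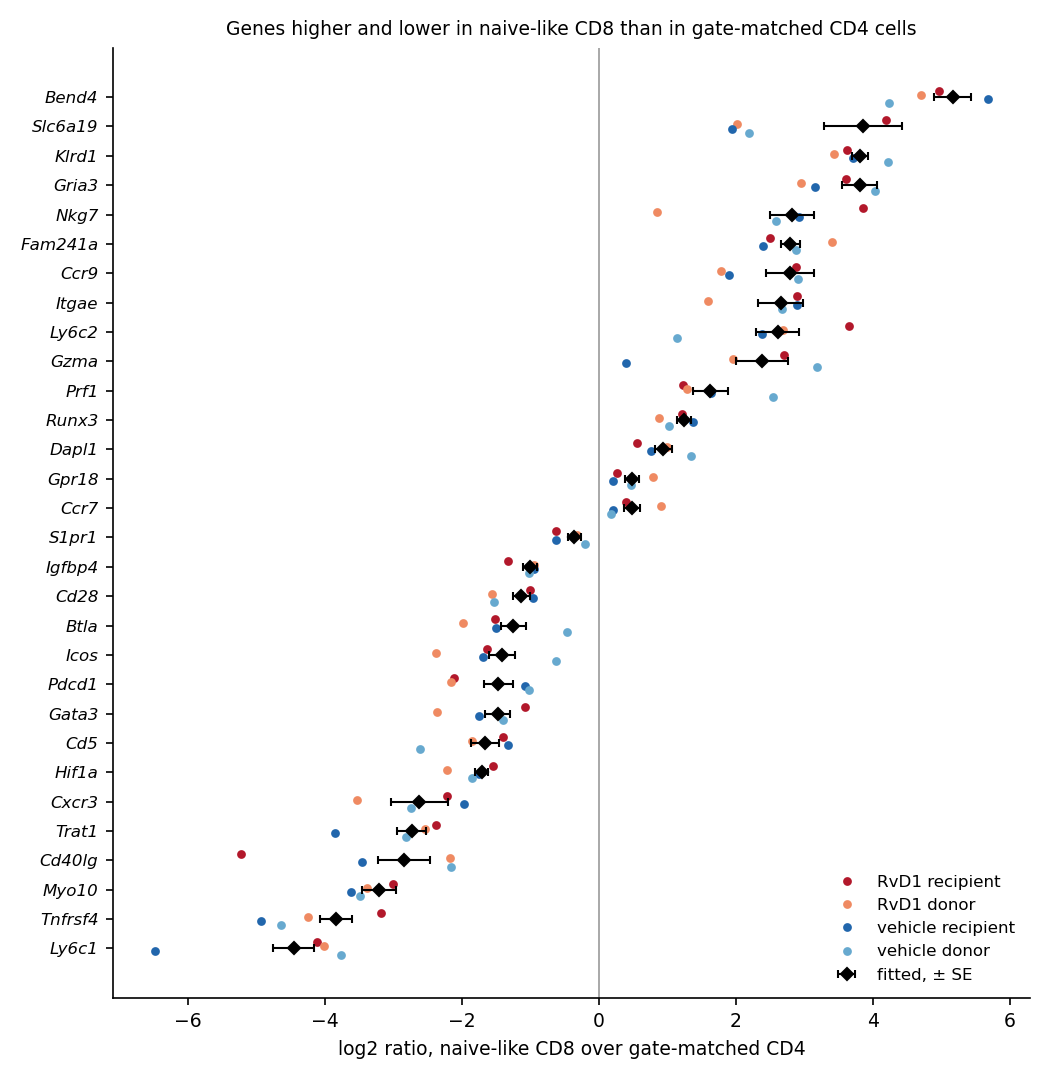
Log2 ratio of naive-like CD8 over gate-matched CD4 T cells for 30 named genes, with 1 point per library (computed with a small added count) and the edgeR fold change with its SE as a black diamond. Cytotoxic and lineage genes such as Klrd1, at 3.82, lie to the right and helper genes such as Tnfrsf4, at -3.84, to the left.

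Before the libraries were compared with each other, transcripts of other cell types in the members were counted. Of the 978 members, 13 carried at least 10 UMIs over 18 macrophage and dendritic cell genes: 2 and 1 in RvD1 recipient and donor, and 1 and 9 in vehicle recipient and donor. These 13 held 2232 of the 2551 such UMIs in all members, 87.5%, and 5 of them were called doublets. The summed level of 13 monocyte and macrophage genes was 177 CPM in RvD1 recipient and 659 CPM in RvD1 donor, against 124 CPM in vehicle recipient and 515 CPM in vehicle donor, with C1qa and Marco at 0 in all 4. Dendritic cell genes summed to 27.7 and 20.5 CPM in RvD1 recipient and donor, against 20.7 and 502 CPM in vehicle recipient and donor, with Siglech at 0 in all 4. Neutrophil genes summed to between 194 and 305 CPM. Of members' UMIs, S100a8 and S100a9 together took 0.0177% and 0.0137% in RvD1 recipient and donor, against 0.0190% and 0.00918% in vehicle recipient and donor. Natural killer cell genes summed to 72.2 and 206 CPM in RvD1 recipient and donor, against 28.9 and 220 CPM in vehicle recipient and donor, with Ncr1 and Klra8 at 0 in all 4. With all cells, the macrophage and natural killer cell sums were thus higher in donor than in recipient members. In RvD1 donor 1 cell held 369 of the 400 UMIs of the 18 genes. In vehicle donor 9 cells held 1664 of 1762. Ly6c2, at 99.9 CPM in RvD1 recipient, is part of the monocyte and macrophage sum. Tyrobp, whose ratio was smaller without the 13 cells (below), is part of the natural killer cell sum. Values without the 13 cells, a choice made after seeing the data, are given beside results that they moved.

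RvD1 was set against vehicle within each origin, the recipient pair and the donor pair. A gene was counted where each pair held 100 or more of its UMIs and where it differed at least 1.5-fold the same way in both. Of 3735 genes measured, 27 (0.723%) were higher with RvD1 and 141 (3.78%) were lower. The median log2 ratio of all genes was -0.15 in the recipient pair and -0.25 in the donor pair, and single ratios are read against these medians. With the medians set to 0 the counts were 64 higher and 34 lower, and with ribosomal and mitochondrial genes left out of the total they were 41 and 52, so the balance of directions depended on the scaling. Higher genes made up 16.1% of the calls, 65.3% with the medians at 0 and 44.1% without ribosomal and mitochondrial genes. Without cells carrying myeloid transcripts, 26 of 3387 genes were higher and 117 lower, and 24 and 107 of them were among the calls with all cells. In gate-matched CD4 T cells, 16 of 3059 genes were higher and 83 lower.

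Among the higher genes were linker histones and a cold-inducible RNA-binding protein. Hist1h1e (chr13:23620629-23622558, minus strand), a linker histone gene, stood at 189 CPM in RvD1 recipient against 69.0 CPM in vehicle recipient, and at 212 CPM in RvD1 donor against 49.6 CPM in vehicle donor. The log2 ratios were 1.45 (95% counting interval 1.22 to 1.70) and 2.09 (1.73 to 2.47), and in CD4 T cells of the same pairs 1.10 and 0.64. Hist1h1c, another linker histone gene, stood at 125 against 75.2 CPM in the recipient pair and 153 against 55.1 CPM in the donor pair. Hist1h1e shares exon sequence on its strand with other histone models, and histone genes have near-identical copies, so single-gene values are uncertain. Cirbp (chr10:80165985-80172786, plus strand), which encodes an RNA-binding protein induced by mild cold, stood at 121 CPM in RvD1 recipient against 64.3 CPM in vehicle recipient, and at 98.7 CPM in RvD1 donor against 52.1 CPM in vehicle donor. Its log2 ratios were 0.91 and 0.92 in members, and 0.75 and 0.70 in CD4 T cells.

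The serine protease inhibitor gene Serpinb1a (chr13:32842092-32851185, minus strand) was higher in members of both pairs. It stood at 28.1 CPM in RvD1 recipient against 11.3 CPM in vehicle recipient, and at 62.8 CPM in RvD1 donor against 25.8 CPM in vehicle donor. The log2 ratios were 1.31 and 1.28 in members, and 0.06 and -0.44 in CD4 T cells, a difference between the classes that was not tested. Hopx, a homeodomain-only protein gene at chr5:77086988-77115121 on the minus strand, stood at 53.9 against 31.6 CPM in the recipient pair and 66.7 against 32.8 CPM in the donor pair, with log2 ratios of 0.77 (0.40 to 1.15) and 1.03 (0.47 to 1.57). An antisense gene overlaps Hopx. The remaining named higher genes were Fam189b, Hgsnat, Wdr89, Cdk8, Rpl10-ps3 and Rpl9-ps6, of which the last 2 are processed copies of ribosomal genes whose reads may be divided with their parents. Hgsnat did not keep its direction in the donor pair without the cells carrying myeloid transcripts, where its log2 ratio was -0.79.

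Genes lower with RvD1 included a chromatin regulator, a deacetylase and a signalling exchange factor. Kdm2b (chr5:122870665-122989823, minus strand), a histone demethylase gene, stood at 109 CPM in RvD1 recipient against 248 CPM in vehicle recipient, and at 97.5 CPM in RvD1 donor against 318 CPM in vehicle donor, with log2 ratios of -1.18 and -1.70. Gene models on both strands overlap Kdm2b. The deacetylase gene Sirt1 stood at 22.2 against 49.5 CPM in the recipient pair and 16.7 against 43.2 CPM in the donor pair. Vav3, an exchange factor of receptor signalling, stood at 40.7 against 81.9 CPM in the recipient pair and 29.5 against 105 CPM in the donor pair, with log2 ratios of -1.01 and -1.83 in members and -1.34 and -1.84 in CD4 T cells. Ppp2r3a, Hexim1, Acyp2, Reps1, Parp8 and Gbp6 were lower by log2 ratios between -1.04 and -1.52. Mt1, a metallothionein gene, stood at 16.7 against 38.2 CPM in the recipient pair and 30.8 against 223 CPM in the donor pair. Without cells carrying myeloid transcripts its log2 ratio was -1.22 in the recipient pair and -0.07 (-1.08 to 0.86) in the donor pair.

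**Figure D4:**
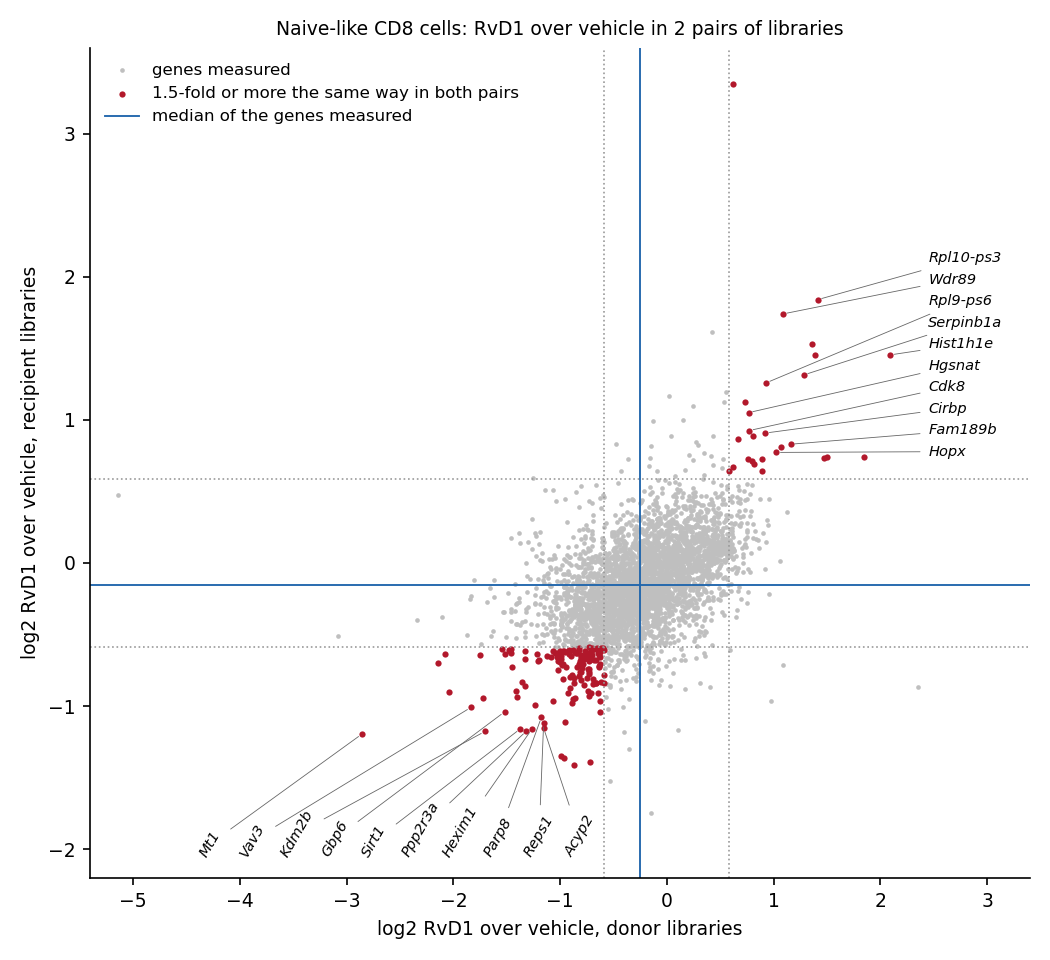
Log2 ratio of RvD1 over vehicle in naive-like CD8 T cells, donor pair on the horizontal axis and recipient pair on the vertical axis, with 1 point per gene measured and blue lines at the medians. Red points are the genes at least 1.5-fold different the same way in both pairs, 27 higher and 141 lower, and the 20 named genes carry labels.

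Of the gene groups, the interferon response list lay lowest in the donor pair. Of its 33 genes 20 were measured, and none was counted higher. Counted lower were 4, against 3.78% of all genes measured. The median log2 ratio was -0.38 in the recipient pair and -1.05 in the donor pair. With the medians of all genes set to 0 it was -0.22 and -0.80. Gbp2, a guanylate-binding protein of antimicrobial defence, stood at 107 CPM in RvD1 recipient against 164 CPM in vehicle recipient, and at 68.0 CPM in RvD1 donor against 188 CPM in vehicle donor. Irgm1, an interferon-inducible GTPase gene, stood at 33.6 against 51.1 CPM in the recipient pair and 16.7 against 48.6 CPM in the donor pair. Per member, the summed interferon list had a median of 20.99 and 15.02 UMIs per 10000 UMIs in RvD1 recipient and donor, against 27.6 and 24.9 in vehicle recipient and donor.

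Immediate early genes, which answer receptor signals and tissue handling within minutes, and heat shock genes had medians below 0 with RvD1 and few genes counted. Of 23 immediate early genes 3 were counted lower, against 3.78% of all genes measured, and none higher. Their medians were -0.37 in the recipient pair and -0.32 in the donor pair, or -0.22 and -0.07 with the all-gene medians at 0. Nr4a3, an orphan nuclear receptor gene of this group, stood at 29.7 against 58.1 CPM in the recipient pair and 39.8 against 83.4 CPM in the donor pair. Tnfaip3, the gene of the NF-kappa-B inhibitor A20, stood at 130 against 220 CPM in the recipient pair and 156 against 273 CPM in the donor pair. Of 16 heat shock genes 1 was counted lower, a share near that over all genes, with medians of -0.40 in the recipient pair and -0.34 in the donor pair, or -0.25 and -0.08 with the all-gene medians at 0. It was the chaperone gene Hsp90aa1, at 202 against 384 CPM in the recipient pair and 249 against 413 CPM in the donor pair.

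The genes of naive cell homing and quiescence showed few differences between treatments. Of 18 homing and quiescence genes measured 1 was counted higher, against 0.723% of all genes measured. It was the thioredoxin-binding gene Txnip, at 140 against 85.4 CPM in the recipient pair and 137 against 78.9 CPM in the donor pair. Klf2, the quiescence factor that drives S1pr1, stood at 574 against 411 CPM in the recipient pair and 596 against 346 CPM in the donor pair, past 1.5-fold in the donor pair alone. The markers Cd8a (log2 0.49 in the recipient pair and 0.25 in the donor pair), Cd8b1 (0.20 and 0.32), Lef1 (-0.21 and -0.40) and Dapl1 (0.11 and -0.31) differed by less than 1.5-fold. In T cell receptor signalling 1 of 19 genes was counted lower, a share near that over all genes. It was Ubash3a, which restrains that signalling, at 65.8 against 102 CPM in the recipient pair and 61.6 against 96.3 CPM in the donor pair. The survival gene Bcl2 stood at 345 against 206 CPM and 331 against 248 CPM, and the pro-death gene Bcl2l11 at 226 against 320 CPM and 191 against 328 CPM, in the recipient and the donor pair, and neither was counted. Of 44 oxidative phosphorylation genes none was counted, while 35 were above 0 in each pair, with medians of 0.12 in the recipient pair and 0.34 in the donor pair.

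Receptors for resolvins and related lipid mediators were looked up in the members. Gpr18 (chr14:121911253-121915781, minus strand), known as a receptor for resolvin D2, stood at 233 CPM in RvD1 recipient against 188 CPM in vehicle recipient, and at 185 CPM in RvD1 donor against 144 CPM in vehicle donor. The log2 ratios were 0.31 (0.16 to 0.47) and 0.36 (0.06 to 0.65), below 1.5-fold. A Gpr18 UMI was present in 73.0 to 80.7% of members, and in 2.15 to 3.96% of neutrophil-like barcodes. Gpr18 was also higher in members than in CD4 T cells, at 187 against 141 CPM (log2 0.49, SE 0.11, edgeR adjusted p 0.0139). Fpr2, a receptor for RvD1 itself, had a UMI in 0.8% and 2.7% of members of RvD1 recipient and donor, against 0.4% and 3.1% in vehicle recipient and donor. Fpr2 UMIs were in 0.594 to 1.16% of B-cell-like barcodes (no Cd3, at least 2 Cd79a UMIs) and in 58.8 to 63.9% of neutrophil-like barcodes, so the share in members was not read as expression. Ltb4r2, Gpr37, Lgr6 and Ptgir had no UMI in any member.

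Recipient members were then set against donor members within each treatment. These pairs use the same 4 libraries as the comparison of treatments, so the 2 sets of values are not independent. Of 4778 genes measured, 6 (0.126%) were at least 1.5-fold higher in recipient cells in both pairs and 110 (2.30%) were lower. The all-gene median log2 ratios were -0.06 with RvD1 and -0.16 with vehicle. With these set to 0 the counts were 15 higher and 70 lower, and without ribosomal and mitochondrial genes 23 and 65. Higher genes were 5.17% of the calls, 17.6% with the medians at 0 and 26.1% without ribosomal and mitochondrial genes. Without cells carrying myeloid transcripts 6 of 4635 genes were higher and 52 lower, and 5 and 43 of them were among the calls with all cells. In CD4 T cells 29 of 3804 genes were higher and 161 lower.

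The 6 higher genes were Tmem108, Mgst2, Ctsw, Ly6c2, Igfbp4 and Iigp1. Ly6c2, a surface antigen gene, stood at 99.9 CPM in RvD1 recipient against 57.7 CPM in RvD1 donor, and at 77.6 CPM in vehicle recipient against 46.6 CPM in vehicle donor. Without cells carrying myeloid transcripts it was 100 against 15.9 CPM with RvD1 and 78.1 against 41.3 CPM with vehicle, log2 ratios of 2.66 (1.84 to 3.62) and 0.92. Igfbp4 stood at 73.4 CPM in RvD1 recipient against 46.2 CPM in RvD1 donor, and at 81.5 CPM in vehicle recipient against 41.2 CPM in vehicle donor. An Igfbp4 UMI was present in 37.3% and 28.4% of RvD1 recipient and donor members, and in 45.8% and 26.9% of vehicle recipient and donor members, against at most 0.474% of neutrophil-like barcodes. The protease gene Ctsw stood at 60.3 against 24.4 CPM with RvD1 and 57.7 against 30.3 CPM with vehicle, with log2 ratios of 1.31 and 0.93 in members and 0.32 and -0.44 in CD4 T cells. Iigp1, an interferon-inducible GTPase gene, stood at 120 against 62.8 CPM with RvD1 and 180 against 115 CPM with vehicle, and its vehicle ratio was below 1.5-fold without cells carrying myeloid transcripts.

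Many of the lower genes were macrophage transcripts, and their values turned on a few cells. Lyz2, the lysozyme gene of macrophages and neutrophils, stood at 35.7 against 382 CPM with RvD1 and 3.51 against 249 CPM with vehicle. Without the 13 cells it was 9.2 against 14.6 CPM with RvD1 and 3.53 against 11.7 CPM with vehicle, log2 ratios of -0.67 (-1.66 to 0.45) and -1.73. Ifitm2, Ifitm3, Tyrobp, Cxcl2 and Lyn likewise had smaller ratios without these cells.

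Cd44, S100a4 and Bcl2a1b, which are high in activated and memory T cells, were lower in recipient members with and without those cells. Cd44 (chr2:102811141-102901665, minus strand) stood at 19.2 CPM in RvD1 recipient against 130.8 CPM in RvD1 donor, and at 15.2 CPM in vehicle recipient against 183.1 CPM in vehicle donor. Without cells carrying myeloid transcripts it was 17.2 against 79.6 CPM with RvD1 and 11.4 against 40.8 CPM with vehicle, log2 ratios of -2.21 (-2.72 to -1.69) and -1.84 (-2.51 to -1.20). A Cd44 UMI was found in 9.13% of RvD1 recipient and 22.97% of RvD1 donor members, and in 8.76% of vehicle recipient and 23.8% of vehicle donor members. Thinned to 1500 UMIs these shares were 1.22% and 5.41% with RvD1 and 1.59% and 5% with vehicle. A Cd44 UMI was in 99.0 to 99.8% of neutrophil-like and in 23.8 to 37.1% of B-cell-like barcodes, and the part of free RNA in the members' shares was not tested. The calcium-binding protein gene S100a4 stood at 10.8 against 53.1 CPM with RvD1 and 3.53 against 92.1 CPM with vehicle without the myeloid-bearing cells, where 34 of the 40 RvD1 donor UMIs lay in 8 members with at least 2 Cd44 UMIs. Among members with 0 or 1 Cd44 UMI, S100a4 stood at 10.3 CPM in 483 RvD1 recipient cells against 9.10 CPM in 65 RvD1 donor cells. In the vehicle pair it stayed lower in recipient members, at 0.798 CPM in 248 cells, on 2 UMIs, against 34.5 CPM in 136 donor cells. With a gate of at least 2 UMIs of Cd8b1 and of Lef1 plus Tcf7, on all cells, the RvD1 ratio had the opposite sign (log2 1.25). The survival gene Bcl2a1b had log2 ratios of -2.74 with RvD1 and -1.94 with vehicle without the myeloid-bearing cells. Bcl2a1b shares exon sequence with another gene model.

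**Figure D5:**
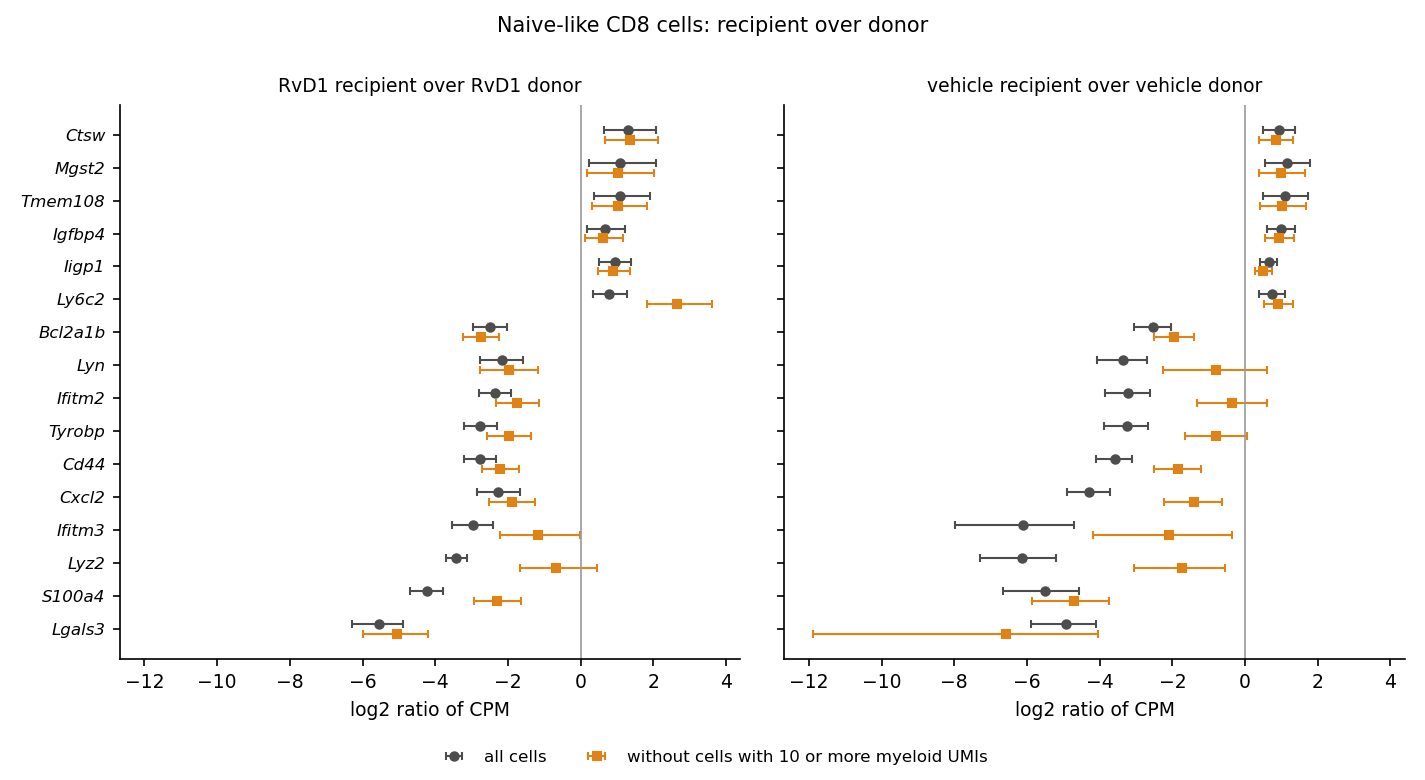
Log2 ratio of recipient over donor naive-like CD8 T cells with RvD1 (left) and with vehicle (right) for 16 named genes, all cells in grey and without the cells carrying myeloid transcripts in orange, with 95% counting intervals. Cd44 stays lower in both settings, at -2.21 and -1.84 without those cells, whereas Lyz2 with RvD1 moves to -0.67 with an interval that spans 0.

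With the myeloid-bearing cells left out, the nuclear receptor gene Rora was among the genes furthest below in recipient members. Rora (chr9:68653786-69388246, plus strand), a factor of innate lymphoid and type 17 cells, stood at 23 against 88.9 CPM with RvD1 and 28.7 against 143 CPM with vehicle, log2 ratios of -1.95 and -2.32. Its UMIs sat in few donor cells. In vehicle donor, 15 members with at least 2 Cd44 UMIs had 724.5 CPM of Rora, against 46.8 CPM in the other 136, and in RvD1 donor 8 such members had 530.7 CPM against 25.8 CPM in the other 65. In RvD1 recipient 8 such members had 11.1 CPM against 23.3 CPM in the other 483, and in vehicle recipient 2 such members had 73.3 CPM, on 3 UMIs, against 27.9 CPM in the other 248. Zbtb16, the factor PLZF of innate-like T cells, was found in the same donor cells, at 180.4 CPM in RvD1 donor and 397.7 CPM in vehicle donor, and at 0 in the donor members with 0 or 1 Cd44 UMI. Over all members a Zbtb16 UMI was present in 1 of 493 RvD1 recipient and 4 of 74 RvD1 donor cells, and in 0 of 251 vehicle recipient (exact upper bound 1.46%) and 9 of 160 vehicle donor cells. Il23r had a UMI in 0 and 4 of these RvD1 recipient and donor members and in 0 and 9 of the vehicle recipient and donor members. A small number of donor cells inside the naive-like gate thus carried transcripts that go against the label.

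As a list, memory and cytotoxic genes were divided. With all cells 7 of 16 were counted lower in recipient members and 2 higher, against 2.30% and 0.126% of all genes measured. The list medians were -0.53 with RvD1 and -0.65 with vehicle. Without the myeloid-bearing cells 2 of 15 were lower and 2 higher, with medians of -0.39 and -0.47. Per cell, the summed list had a median of 12.9 UMIs per 10000 UMIs in both RvD1 recipient and donor members, and of 11.3 in vehicle recipient and 12.7 in vehicle donor. Its 90th percentile was 22.5 in RvD1 recipient and 40.6 in RvD1 donor, and 19.8 in vehicle recipient and 45.6 in vehicle donor. Without the myeloid-bearing cells it was 22.4 and 37.5 with RvD1, and 19.6 and 27.0 with vehicle. The medians were thus close, and the 90th percentile was higher in donor cells in both settings, by less with vehicle once 9 cells were left out. Klrd1, by contrast, stood at 262 against 194 CPM with RvD1 and 253 against 189 CPM with vehicle, and Nkg7 at 193 against 115 CPM and 137 against 96.3 CPM, with log2 ratios between 0.42 and 0.74.

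The interferon list had none of 24 genes counted in either direction. Its median was 0.63 with RvD1, where 23 of the 24 were above 0, and 0.08 with vehicle, where 16 were. Ifit1, an inhibitor of viral RNA translation, stood at 29.5 against 10.3 CPM with RvD1 and 47.9 against 35.7 CPM with vehicle. Zbp1, a sensor of nucleic acids, stood at 59.2 against 23.1 CPM with RvD1 and 65.5 against 49.6 CPM with vehicle. The naive homing and quiescence list had none of 18 genes counted, with medians of 0.05 with RvD1 and -0.17 with vehicle. Of 15 migration genes 4 were lower with all cells, against 2.30% of all genes measured, and 2 without the myeloid-bearing cells. Itgb1, an integrin chain of memory T cells, stood at 29.3 against 46.2 CPM with RvD1 and 20.3 against 51.6 CPM with vehicle.

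Within the members, cells with 1 or 2 Ccl5 UMIs, the most the rule allowed, were compared with cells at 0 as a description. They numbered 52 of 493 in RvD1 recipient and 13 of 74 in RvD1 donor, and 25 of 251 in vehicle recipient and 29 of 160 in vehicle donor. Ly6c2 stood at 260 against 78.1 CPM in RvD1 recipient, 238 against 14.3 CPM in RvD1 donor, 180 against 64.9 CPM in vehicle recipient and 94.7 against 33.9 CPM in vehicle donor, higher in the Ccl5-bearing cells of all 4 libraries. Il2rb, the shared receptor chain for IL-2 and IL-15, was higher in them in all 4 as well, at 119 against 82.5 CPM, 199 against 95.4 CPM, 215 against 128 CPM and 232 against 183 CPM in the same order of libraries. Without the myeloid-bearing cells, Ly6c2 in RvD1 donor stood at 24.0 CPM on 3 UMIs, against 14.3 CPM, while in the other 3 libraries it was still higher in the Ccl5-bearing cells. Cd44 showed no common direction: without the myeloid-bearing cells it stood at 43.96 against 13.6 CPM in RvD1 recipient and 64.0 against 82.7 CPM in RvD1 donor, and at 0 against 12.8 CPM in vehicle recipient and 48.7 against 38.8 CPM in vehicle donor. With all cells it was 331 against 82.7 CPM in RvD1 donor and 189 against 181 CPM in vehicle donor. In vehicle donor both levels thus rested mostly on the myeloid-bearing cells. In RvD1 donor only the level of the Ccl5-bearing cells did. Ccr7 was lower in them in 1 of the 4 libraries, at 409 against 400.02 CPM in RvD1 recipient and 232 against 385 CPM in RvD1 donor, and at 515 against 458 CPM in vehicle recipient and 407 against 405 CPM in vehicle donor.

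The T cell receptor variable segments seen in members were varied, as far as a 3′ kit reads them. A Trbv segment was detected in 90 of 493 RvD1 recipient and 13 of 74 RvD1 donor members, and in 45 of 251 vehicle recipient and 35 of 160 vehicle donor members. With each cell counted under its segment with most UMIs, members used 18 different ones in RvD1 recipient and 9 in RvD1 donor, and 21 in vehicle recipient and 13 in vehicle donor. In RvD1 recipient no segment exceeded 10 of 90 cells (11.1%), a count reached by both Trbv12-1 and Trbv19. In RvD1 donor none exceeded 2 of 13 (15.4%), with Trbv2 and Trbv4 among those at 2. The commonest was Trbv19 in vehicle recipient (9 of 45, 20.0%, exact interval 9.58 to 34.6%) and Trbv12-2 in vehicle donor (9 of 35, 25.7%, 12.5 to 43.3%). These intervals are wide, since few members had a segment read.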

How the data were processed

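The deposited files held UMI counts per gene and barcode as filtered Cell Ranger matrices, version 7.0.1 for the RvD1 and 6.1.1 for the vehicle libraries, per the file headers. Libraries used a 10x 3′ kit on a NovaSeq, per the labels' protocols. The submitters' processing notes name the build mm10 and Seurat 4.0.0. Intron counting is not stated in any source used here. The cell selection, the comparisons and the gene lists were chosen with earlier results of these data known.

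Barcodes needed 200 or more genes and no more than 10% of UMIs from mitochondrial genes. Possible doublets were called with Scrublet in scanpy 1.11.5 and kept, apart from 1 alternative. Classes were set by UMI thresholds. UMIs were summed per library and class. CD8 and CD4 sums were tested with edgeR 4.0.16 (TMM, library block, at least 100 UMIs, Benjamini-Hochberg adjusted p of 0.05) in R 4.3.3, tested on simulated data beforehand, with DESeq2 1.42.0 as an alternative. Pairs of single libraries were compared by CPM with 95% exact intervals for the counts. In ratios a count of 0 was set to a floor of 3, and all other counts were left unchanged. These intervals cover counting error only. Cells per library limited precision most in RvD1 donor.

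The genes named were the rule genes and markers Cd8b1, Cd8a, Lef1, Tcf7 and Dapl1, up to 10 genes in each direction of each comparison by the size of the ratio with the same sign in all libraries or pairs, up to 4 members per list by size, and receptors for resolvins. Ribosomal, mitochondrial, sex-linked, T cell receptor and unnamed models were not ranked, and some genes are not reported here. Genes that stood beside a list count, the markers of other cell types and the genes of cells near a threshold were named after their values were seen. CPM was computed from the deposited counts and is not comparable between genes, because each UMI is a 3′ tag.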

Additional observations from a re-analysis of the deposited data

Results flagged for a closer look

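Several genes had ratios of opposite sign in the 2 pairs of a comparison, with counting intervals on opposite sides of 0. The difference between the pairs was not tested against replicates. S100a6 was higher with RvD1 in the donor pair (250 against 128 CPM, log2 0.97) and lower in the recipient pair (26.5 against 51.8 CPM, log2 -0.97). Its UMIs sat in few cells. In RvD1 donor, 95 lay in 23.1% of the 13 members with 1 or 2 Ccl5 UMIs, which included the 1 member with myeloid transcripts. In vehicle recipient, 130 lay in 6.19% of the 226 members with no Ccl5 UMI. Counting intervals do not cover this spread between cells. Stmn1, a microtubule regulator, was higher with RvD1 in the donor pair (82.1 against 38.7 CPM, log2 1.08) and lower in the recipient pair (23.8 against 39.0 CPM, log2 -0.71). Rapgef6, an exchange factor for Rap GTPases, was higher in recipient than donor cells with RvD1 (1352 against 855 CPM, log2 0.66) and lower with vehicle (1346 against 1472 CPM, log2 -0.13). The all-gene median of the vehicle pair was -0.16, so against that median Rapgef6 was not lower with vehicle. Btg2, an antiproliferative gene, was lower in recipient than donor cells with RvD1 (217 against 269 CPM, log2 -0.31) and higher with vehicle (260 against 208 CPM, log2 0.32).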

How the results depend on the processing

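Shares of T cells moved with the gate. Thinning cells to 1500 UMIs gave 8.20% in RvD1 recipient and 1.69% in RvD1 donor, against 10.2% in vehicle recipient and 4.82% in vehicle donor. A stricter gate (at least 2 UMIs of Cd8b1 and of Lef1 plus Tcf7) gave 19.3% and 6.17%, against 22.8% and 11.4%. Requiring no Ccl5 UMI gave 23.9% in RvD1 recipient and 12.8% in vehicle donor. Counts for RvD1 over vehicle were 49 higher and 236 lower with a minimum of 50 UMIs, 13 and 78 with 200 UMIs, 6 and 10 at 2-fold, 64 and 34 with medians at 0, and 41 and 52 without ribosomal and mitochondrial genes. Counts for recipient over donor were 24 and 221 with 50 UMIs, 34 lower with 200 UMIs, 2 and 32 at 2-fold, 15 and 70 with medians at 0, 23 and 65 without ribosomal and mitochondrial genes, 10 and 33 with the stricter gate, 10 higher with no Ccl5, and 52 lower without myeloid-bearing cells, a choice made after seeing the data. For CD8 over CD4 the counts were 604 higher and 766 lower with no UMI minimum, 96 and 111 with no library block, 262 and 298 with DESeq2, and 289 and 713 with no scaling factors. Leaving out 1 library gave 154 to 446 higher and 210 to 547 lower: 154 and 210 without RvD1 recipient, 178 and 230 without vehicle recipient. Of the named genes, Ccl22, Adgrl3, Pf4 and Ccl2 lost the call under DESeq2 and with no library block. Directions reversed for Hgsnat, RvD1 donor over vehicle donor (log2 -1.83 stricter gate, -0.94 no Ccl5, -0.71 doublets removed, -0.79 without myeloid-bearing cells). With RvD1, recipient over donor, they reversed for S100a4 (1.25) and Lyz2 (0.52) with the stricter gate, Lyz2 (1.85) with no Ccl5, and Ifitm3 (0.18), Ifitm2 (1.07) and Cxcl2 (0.59) with doublets removed. The causes were not tested. No paired analysis was possible because each group is 1 library; the library block pairs the CD8 and CD4 cells of a library. Few cells, in RvD1 donor above all, limit what ratios of low genes can show.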
